A study of Homo sapiens with 42 samples.

Results

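The immediate surroundings of 3 viewpoints on chromosome 9 were described, namely the contacts whose position lay on chromosome 9 within 20 kb of the viewpoint from which they were read. The choice of contacts used distance alone, but each viewpoint was set at the chromosome 9 position with the most contacts of its primer. It took 141351 of 686700 listed contacts (20.6%) in 42 libraries, where a contact is 1 line of a library's list and is called a line on the plots. These contacts fell on 2742 of 140567 distinct positions. The Proximal viewpoint stood at chr9:111624875, the Distal viewpoint at chr9:111525048 and the Outside viewpoint at chr9:111110106, in hg19 coordinates. The Proximal zone (chr9:111604875-111644875) held 71338 contacts at 1043 positions, 31.2% of all Proximal contacts. The Distal zone (chr9:111505048-111545048) held 36019 contacts at 900 positions, 15.7% of the total. The Outside zone (chr9:111090106-111130106) held 33994 contacts at 799 positions, 14.9% of the total. The viewpoints lay 99.8 kb (Proximal to Distal) and 414.9 kb (Distal to Outside) apart, so the zones did not overlap.

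The cells were K562-FUCCI, a chronic myeloid leukaemia line with the FUCCI reporter knocked in at the AAVS1 locus. FUCCI marks the stage of the cell cycle by fluorescent proteins. Unsynchronised live cells were stained with Hoechst33342, a dye of DNA content, and sorted into G1 and the S-phase fractions S1 to S6, so that every group shares the line, the knock-in and the stain. By the labels, the Proximal and Distal primers sit in a fountain, a contact pattern that spreads away from the diagonal of a contact map, and the Outside primer beyond it. Each of the 21 combinations of primer and fraction had 2 libraries. Whether these were separate cultures is not stated in the labels, and a p-value here reflects the spread among libraries that may be technical replicates.

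In a chromosome conformation capture experiment, fixed chromatin is cut by a restriction enzyme and ligated, and the partners of one chosen site, the viewpoint, are read. Contact frequency is known to fall steeply with distance along the chromosome. The nearest positions also collect uncut DNA, the religation of neighbouring ends and the closing of a fragment on itself, so that many studies leave them out. The enzyme used here, DpnII, cuts at GATC.

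Every library listed 16350 positions, so the sequencing depth before this equal size is unknown. At this size the 95% Wilson interval of a library's zone share reached 0.504 to 0.741 points to either side. It covers counting error only and takes every contact as an independent draw. If repeats of a position are copies, the interval is too narrow. Contacts that repeat a listed position were kept as separate contacts. No annotation of hg19 was used here, so positions carry no gene names.

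The Proximal zone was larger than the others in every library. It held 5816 and 5744 contacts in the G1 libraries (replicates 1 and 2). In S1 it held 6093 and 5346, in S2 4678 and 5183, and in S3 4822 and 4917. In S4 the counts were 4767 and 4798, in S5 5042 and 4480, and in S6 4644 and 5008. All S libraries but S1 replicate 1 lay below both G1 libraries. The mean share was 35.4% ± 0.31 (SD, n = 2) for G1 and 30.5% ± 2.6 (SD, n = 12) for the S libraries, a difference of -4.88 points. The exact two-sided permutation test gave p = 0.033, but an adjusted p of 0.297 over 27 measures (9 measures at 3 viewpoints). Without S1 replicate 1, the library with the highest share, the difference was -5.50 points, with an adjusted p of 0.0577 in the same permutation test. Leaving out the only S library not below G1 fixed the unadjusted p at its smallest possible value. With each of the 14 libraries left out in turn, that adjusted p ran from 0.0577 to 0.952. By fraction, S1 stood at 35.0% ± 3.2 and S4 at 29.3% ± 0.13 (SD, n = 2 each).

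The Distal zone held 2814 and 2663 contacts in G1, 2437 and 2724 in S1, 2413 and 2876 in S2, and 2438 and 2863 in S3. It held 2437 and 2705 in S4, 2361 and 2646 in S5, and 2143 and 2499 in S6. The S libraries overlapped G1, and replicate 2 stood above replicate 1 in each of the 6 S fractions but not in G1. The mean share was 16.7% ± 0.65 (SD, n = 2) for G1 and 15.6% ± 1.3 (SD, n = 12) for the S libraries, with an adjusted p of 0.514 in the exact permutation test.

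The Outside zone held 2648 and 2586 contacts in G1, 2319 and 2555 in S1, 2205 and 2551 in S2, and 2234 and 2579 in S3. It held 2371 and 2697 in S4, 2266 and 2480 in S5, and 2013 and 2490 in S6. Only S4 replicate 2 stood above both G1 libraries, and replicate 2 again exceeded replicate 1 in all 6 S fractions and not in G1. The mean share was 16.0% ± 0.27 (SD, n = 2) for G1 and 14.7% ± 1.2 (SD, n = 12) for the S libraries, with an adjusted p of 0.445 in the exact permutation test.

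Within one replicate number the S libraries were compared with the G1 library of that number. The Proximal share was lower by similar amounts, -4.94 points in replicate 1 and -4.82 points in replicate 2. The Distal difference was -2.71 points in replicate 1 and 0.341 points in replicate 2. The Outside difference was -2.53 points in replicate 1 and -0.167 points in replicate 2. The Distal and Outside values thus came mostly from replicate 1. One replicate number holds a single G1 library, and the smallest p it allows is 0.143, so these differences were not tested.

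**Figure D1:**
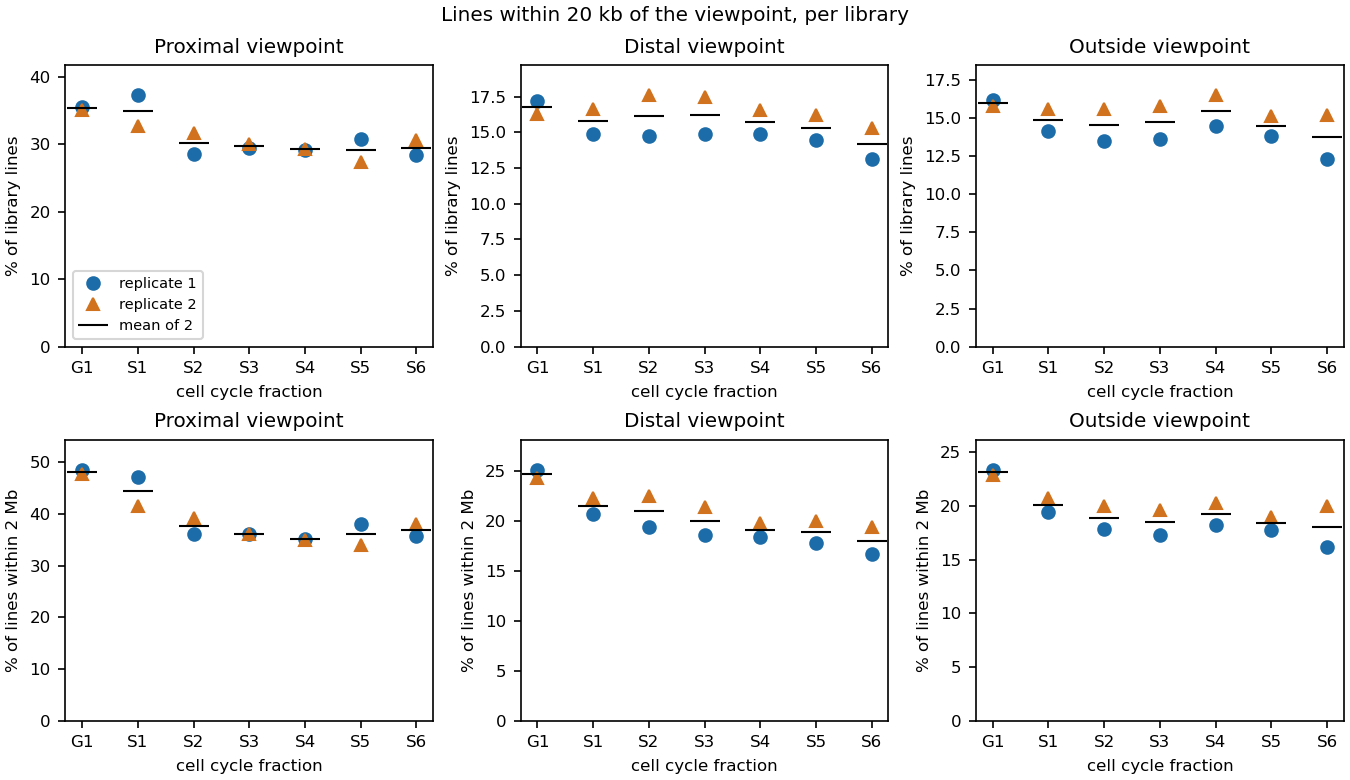
Contacts within 20 kb of the viewpoint in each library, as a percentage of the library (top row) and of the contacts within 2 Mb of the viewpoint (bottom row), by fraction. Circles are replicate 1, triangles replicate 2 and bars the mean of 2 libraries; in the bottom row all 12 S libraries of each viewpoint lie below both G1 libraries.

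With shares taken of the whole library, 0 of the 27 measures passed the exact permutation test of S against G1 after adjustment, and 3 had an unadjusted p below 0.05. Among them, the Proximal surroundings (the zone without the viewpoint position) were lower in all 12 S libraries than in both G1 libraries. Their mean share was 32.99% ± 0.64 (SD, n = 2) for G1 and 27.5% ± 2.4 (SD, n = 12) for the S libraries, with an exact permutation p of 0.011, the smallest possible, and an adjusted p of 0.297. A single measure at this smallest p thus cannot pass after adjustment over 27 measures. The count of 0 therefore does not show an absence of change. Early and late S (S1 to S3 against S4 to S6) differed in 0 measures of 27, with 2 at an unadjusted p below 0.05, in exact permutation tests. The comparison of all 7 fractions by a permutation test of F found 0 measures as well, with 2 at an unadjusted p below 0.05. A single S fraction against G1 was not tested, since 2 libraries against 2 cannot give a p under 0.333.

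With contacts within 2 Mb of the viewpoint as the denominator, all 12 S libraries lay below both G1 libraries at each viewpoint. The Proximal zone took 48.6% and 47.8% of the contacts within 2 Mb in G1, and 34.1% (lowest), 36.2% (median) and 47.1% (highest) in S. The mean fell by 10.5 points, from 48.2% ± 0.54 (SD, n = 2) to 37.7% ± 3.6 (SD, n = 12). The Distal zone took 25.1% and 24.3% in G1, and 16.7%, 19.6% and 22.5% (lowest, median, highest) in S. Its mean fell by 4.96 points, from 24.7% ± 0.58 (SD, n = 2) to 19.7% ± 1.8 (SD, n = 12). The Outside zone took 23.4% and 22.9% in G1, and 16.2%, 19.2% and 20.7% in S. Its mean fell by 4.26 points, from 23.1% ± 0.37 (SD, n = 2) to 18.9% ± 1.4 (SD, n = 12). The adjusted p of the exact permutation test was 0.033 at each viewpoint, and 12 of the 27 measures passed, all lower in S. These measures overlap, since the zone holds the surroundings and their distance classes. Among the 12 was the Proximal repeat share (adjusted p = 0.0495, same permutation test), which does not use this denominator. Its values and unadjusted p were the same as before, and only the adjustment among the other measures differed.

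Both replicate numbers showed this fall. For the Proximal zone it was -10.5 points in each, but its make-up differed. Contacts within 50 bp of the viewpoint differed by -2.59 points in replicate 1 and -8.31 points in replicate 2. The rest of the Proximal zone differed by -7.92 and -2.20 points in the same order. For the whole Distal zone the differences were -6.51 and -3.42 points in replicates 1 and 2, and for the whole Outside zone -5.60 and -2.92 points. Without Proximal S1 replicate 1, the library closest to G1, the Proximal difference was -11.4 points (unadjusted exact permutation p = 0.0128, 11 libraries against 2). Every S library already lay below both G1 libraries, so this p was the smallest possible whichever S library was left out. It adds no support.

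A share of the contacts within 2 Mb falls when the zone shrinks or when the band from 20 kb to 2 Mb grows. The band took 38.0% ± 0.48 (SD, n = 2) of the Proximal library in G1 and 54.1% ± 0.66 (SD, n = 2) in S4. For Distal it took 51.1% ± 0.40 in G1 and 66.6% ± 0.62 in S4, and for Outside 53.2% ± 0.22 and 65.1% ± 0.17 (SD, n = 2 each). S4 had the largest mean band of the S fractions at each viewpoint. Over all S fractions the mean was 49.8% and 51.0% at Proximal (replicates 1 and 2). It was 63.7% and 63.2% at Distal, and 63.2% and 62.8% at Outside. Contacts farther than 2 Mb or on other chromosomes made up 26.7% ± 0.17, 32.1% ± 1.1 and 30.8% ± 0.048 in G1 at the 3 viewpoints in this order (SD, n = 2 each). They made up 16.7% ± 0.80, 17.7% ± 1.8 and 19.4% ± 1.2 in S4, the lowest means of the S fractions. Over all S fractions the mean was 19.5% and 18.7% at Proximal (replicates 1 and 2). It was 21.8% and 20.2% at Distal, and 23.2% and 21.5% at Outside. The zones themselves took 29.3% ± 0.13, 15.7% ± 1.2 and 15.5% ± 1.4 of the S4 libraries, against 35.4%, 16.7% and 16.0% in G1. The ratio of zone to band therefore carries the band's difference as well as the zone's.

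The Proximal and the other zones were compared in their change from G1 to S, with libraries matched by fraction and replicate number. The Proximal share exceeded the Distal share by 18.6 points in G1 and 14.9 points in S, a change of -3.70 points (exact permutation, adjusted p = 0.165 over 3 pairs of viewpoints). Against Outside the change was -3.54 points (adjusted p = 0.165, same permutation test), and between Distal and Outside it was 0.165 points (adjusted p = 0.703). Without the S1 replicate 1 libraries the Proximal changes were -4.38 and -4.20 points, each with an adjusted p of 0.0192 in the exact permutation test. These were the most negative of 14 such runs, in which the adjusted p ran from 0.0192 to 0.346. The Proximal library left out here had the highest zone share. With all libraries kept, 11 of 12 S differences lay below both G1 differences, and S1 replicate 1 was the exception. Leaving it out therefore fixed the unadjusted p at the smallest possible value, and the pass adds no support. As shares of the contacts within 2 Mb, with all libraries kept, the Proximal changes were -5.55 and -6.25 points, each with an adjusted p of 0.0495 in the same permutation test.

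Positions at and beside the viewpoint carried much of the Proximal zone. The viewpoint is by construction the position with the most contacts of its primer, so its rank is no finding. Contacts within 50 bp of the viewpoint, here called the core, made up 36.1% of the Proximal zone (25783 contacts at 61 positions). The core held 6.43% of the Distal zone (2316 contacts at 16 positions) and 9.74% of the Outside zone (3312 contacts at 50 positions). The split at 50 bp was chosen after these positions had been looked at.

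At the Proximal viewpoint the 5 leading positions lay at the viewpoint or on its higher-coordinate side. The viewpoint itself held 6529 contacts over 14 libraries, the position 19 bp higher 5169, that 16 bp higher 4738, that 8 bp higher 3392 and that 4 bp higher 2191. The next was 2785 bp away with 1416 contacts. At the Distal viewpoint the order was flatter, with 1137 contacts at the viewpoint, 1056 at 419 bp lower, 1014 at 1219 bp lower, 997 at 3 bp higher and 837 at 309 bp lower. At the Outside viewpoint 855 contacts stood at the viewpoint, 649 at 934 bp lower, 641 at 1696 bp higher, 591 at 1188 bp higher and 498 at 5417 bp higher. The 10 leading positions held 37.7% of the Proximal zone, 23.7% of the Distal zone and 16.2% of the Outside zone.

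The viewpoint position of the Proximal primer held 348 and 424 contacts in G1. In replicate 1 of S1 to S6 it held 804, 623, 601, 646, 740 and 431 contacts, all above both G1 libraries. In replicate 2 it held 378, 256, 279, 311, 250 and 438, of which S6 lay above both G1 libraries, S1 between them and the other 4 below both. The replicates of S thus stood on opposite sides of G1 in S2 to S5. The mean share was 2.36% ± 0.33 (SD, n = 2) for G1 and 2.93% ± 1.2 (SD, n = 12) for the S libraries, with an adjusted p of 0.712 in the exact permutation test. The Distal viewpoint position held 84 and 78 contacts in G1, and 64, 83 and 94 (lowest, median, highest) in S. The Outside viewpoint position held 77 and 77 in G1, and 25, 58 and 92 in S. Both S ranges enclosed the G1 values, and neither measure passed the test, with adjusted p of 1.0 and 0.514 in the exact permutation test.

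The positions 16 and 19 bp above the Proximal viewpoint had a lower mean in S than in G1, as the viewpoint position had in replicate 2 alone. No test compared these positions with each other. The position at 19 bp held 535 and 536 contacts in G1, and 186, 352 and 703 (lowest, median, highest) in S. The position at 16 bp held 525 and 519 in G1, and 171, 290.0 and 674 in S. The log2 change of their counts plus 1 from G1 to S was -0.74 ± 0.38 (SE) at 19 bp and -0.84 ± 0.35 (SE) at 16 bp, with the same sign in each replicate number. Neither passed limma's test over all positions, with an adjusted p of 0.776 in each case. The position at 8 bp was also lower in S, with means of 351 in G1 and 224 in S. That at 4 bp was not, with means of 148.5 and 158.

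The core and the flanks (50 bp to 20 kb) of the Proximal zone differed by replicate number. The core took 13.9% and 13.8% of the G1 libraries. In replicate 1 of S it took 9.91% to 20.9%, and in replicate 2 it took 6.13% to 10.7%. Replicate 2 was below replicate 1 in each of the 7 fractions. The highest value, 20.9%, was that of S1 replicate 1. The flanks took 21.7% and 21.3% in G1. They took 16.4% to 18.7% in replicate 1 of S and 20.8% to 22.5% in replicate 2, with no overlap between the replicates. Relative to G1, replicate 1 differed by -0.717 points in the core and -4.23 points in the flanks. Replicate 2 differed by -5.30 points in the core and 0.480 points in the flanks. Without S1 the replicate 1 differences were -2.26 points in the core and -4.01 points in the flanks. The flanks thus differed from G1 in replicate 1 and hardly in replicate 2, while the size of the core's difference in replicate 1 rested on S1. Over both replicates the difference of S from G1 was -3.01 points in the core (adjusted p = 0.524 over 33 measures) and -1.87 points in the flanks (adjusted p = 0.622) in exact permutation tests.

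**Figure D2:**
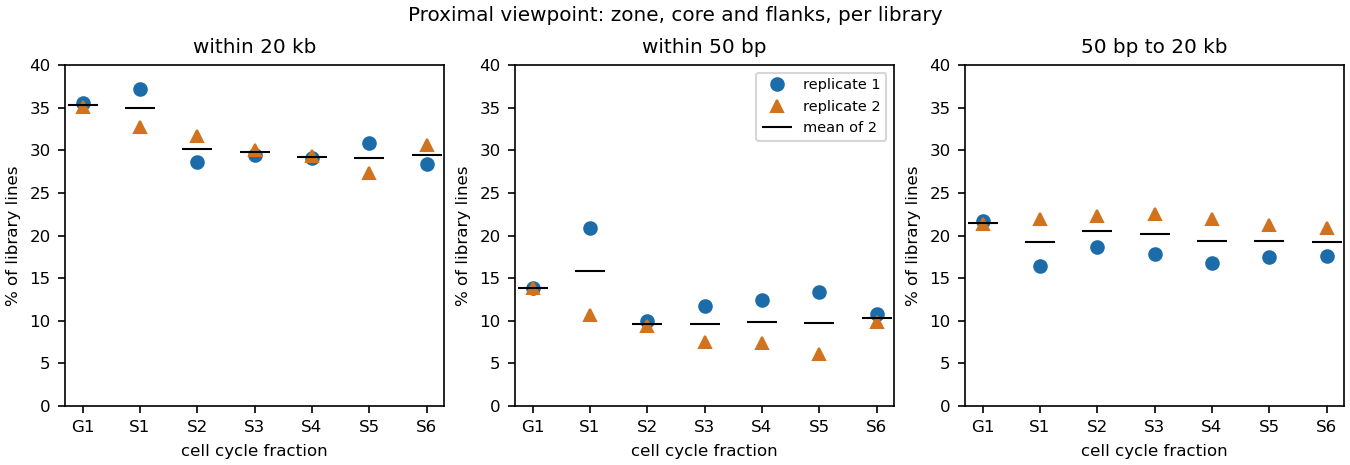
Share of the library taken by the whole Proximal zone, by the core within 50 bp and by the flanks from 50 bp to 20 kb, by fraction, with circles for replicate 1, triangles for replicate 2 and bars for the mean of 2 libraries. In S the flanks of replicate 2 (20.8% to 22.5%) lie above those of replicate 1 (16.4% to 18.7%), and the core has the opposite order.

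As shares of the contacts within 2 Mb the flanks were lower in all 12 S libraries than in both G1 libraries at each viewpoint. The split at 50 bp was chosen from these same data, so the p-values of core and flanks are descriptive. The Proximal flanks fell by 5.06 points, from 29.3% ± 0.41 (SD, n = 2) to 24.3% ± 2.9 (SD, n = 12), with an adjusted p of 0.0453 in the exact permutation test. Most of this came from replicate 1, with -7.92 points against -2.20 points in replicate 2. The Distal flanks fell by 4.63 points from 23.1% ± 0.64 (SD, n = 2), and the Outside flanks fell by 3.84 points from 20.9% ± 0.029 (SD, n = 2), each with an adjusted p of 0.033. The Distal core fell by 0.334 points from 1.60% ± 0.057 (SD, n = 2), also lower in all 12 S libraries, with an adjusted p of 0.0453. The Proximal core, at 18.9% ± 0.13 (SD, n = 2) for G1 and 13.4% ± 4.9 (SD, n = 12) for the S libraries, did not pass (adjusted p = 0.231, same permutation test), nor did the Outside core (adjusted p = 0.335).

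Contact density within 1 kb of the viewpoints was uneven between sides. From 50 bp to 1 kb, the Proximal viewpoint had 258 ± 41 contacts per kb on the higher-coordinate side and 39.7 ± 15 on the lower side (mean ± SD over 14 libraries). The Distal viewpoint had the opposite order, with 53.8 ± 11 on the higher side and 465 ± 36 on the lower side. The Outside viewpoint had 28.2 ± 5.9 on the higher side and 82.8 ± 23 on the lower side. From 1 to 5 kb the Proximal sides were alike, with 162.3 ± 27 and 162.6 ± 21 contacts per kb (higher, then lower). The Distal order held, with 54.6 ± 6.6 and 118 ± 13, and the Outside order turned, with 154 ± 19 and 60.2 ± 9.0. From 10 to 20 kb the values were 33.7 ± 4.6 and 34.9 ± 4.2 at Proximal, 39.2 ± 4.6 and 25.5 ± 2.4 at Distal, and 31.6 ± 3.2 and 39.9 ± 6.2 at Outside (higher, then lower). Just beyond, from 20 to 40 kb, all 6 sides lay between 14.7 and 27.2 contacts per kb. Of the flank contacts, 53.3% to 59.1% of a library lay on the higher side at Proximal, 35.7% to 40.4% at Distal and 54.3% to 60.9% at Outside. The higher-side share of the surroundings passed no test of S against G1, with adjusted p of 0.445, 0.970 and 0.643 in the exact permutation test.

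Counted in 1 kb bins from the viewpoint, the zones were patchy. The Proximal bin from the viewpoint upward (chr9:111624875-111625874) held 31.7% of the zone, or 1613 contacts per library on average without the viewpoint position. It was followed by chr9:111620875-111621874 with 299 contacts, chr9:111626875-111627874 with 294, chr9:111628875-111629874 with 184 and chr9:111619875-111620874 with 181. The leading Distal bin was the one below the viewpoint (chr9:111524048-111525047) with 447 contacts, followed by chr9:111523048-111524047 with 261, chr9:111521048-111522047 with 199, chr9:111525048-111526047 with 130.1 and chr9:111518048-111519047 with 119.5. The Outside zone had no bin of this kind at its centre. Its leading bin, chr9:111114106-111115105, lay 4 to 5 kb away with 222 contacts, followed by chr9:111105106-111106105 with 179.6, chr9:111111106-111112105 with 158, chr9:111110106-111111105 with 153 and chr9:111113106-111114105 with 126. Of 40 bins, 2 Proximal, 4 Distal and 4 Outside bins held no contact in any library.

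At the edge of the zone the bins were compared with their neighbours outside. The last Proximal bins inside 20 kb held a median of 45.5 contacts on the lower side and 0 on the higher side, and the next bins outside held 0 and 23.5. The last Distal bins inside held 38 and 13 (lower, then higher), and the next bins outside 56 and 21.5. The last Outside bins inside held 102 and 47, and the next bins outside 25.5 and 24. The step across the boundary had no common direction.

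**Figure D3:**
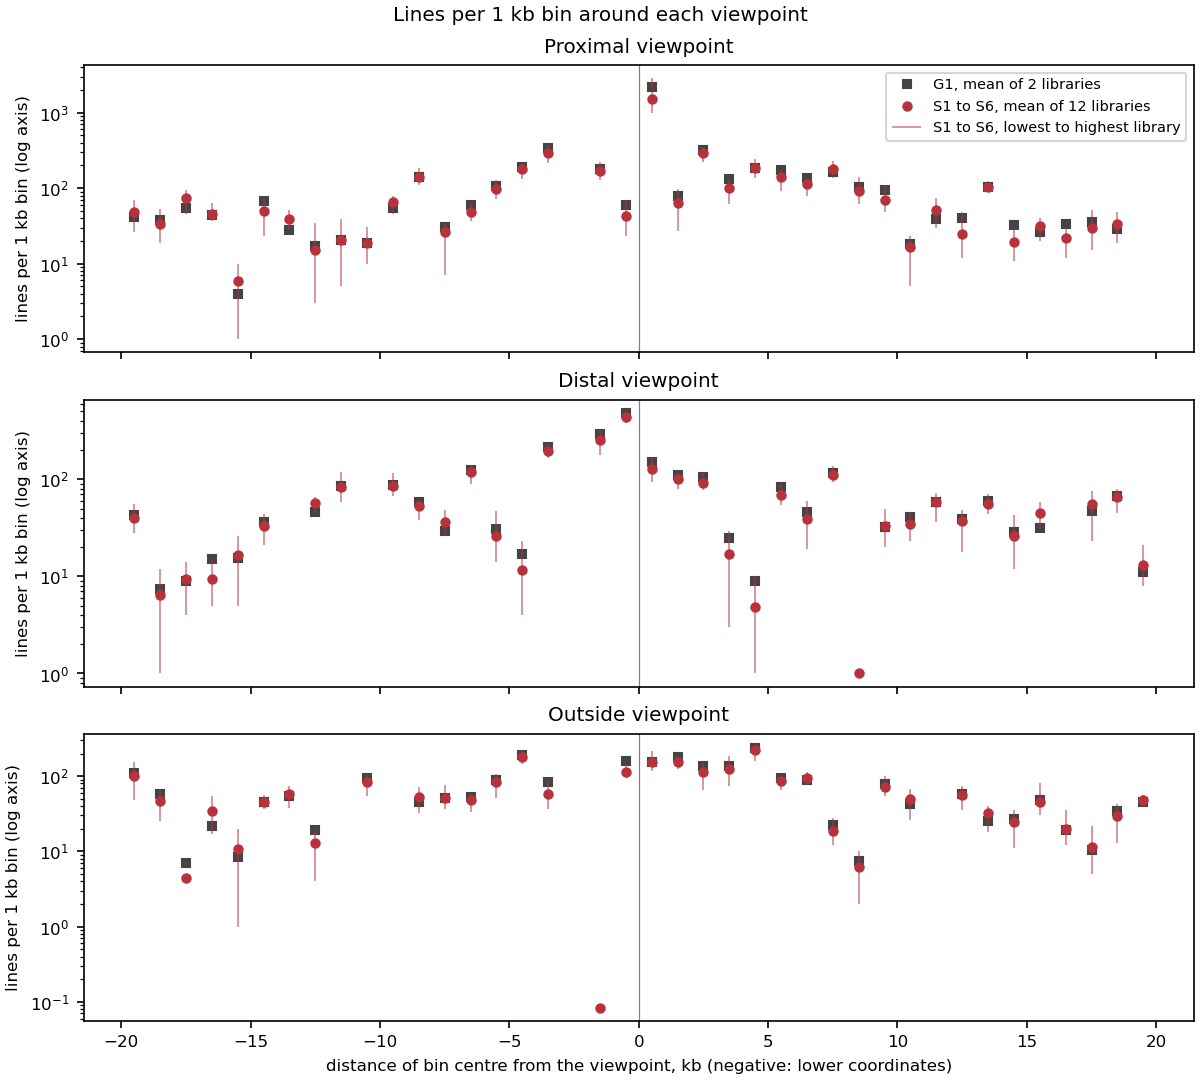
Contacts per 1 kb bin (log axis) against distance of the bin centre from the viewpoint in kb, with squares for the mean of 2 G1 libraries, circles for the mean of 12 S libraries and lines for the lowest and highest S library. The Proximal peak lies just above the viewpoint (31.7% of the zone) and the Distal peak just below it (17.4% of the zone); bins with no contact are left blank.

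Most contacts recurred at few positions. Positions seen in all 14 libraries of a primer numbered 171 at Proximal, 156 at Distal and 128 at Outside, and they held 91.8%, 81.0% and 86.6% of the zone's contacts. Positions seen in 1 library alone numbered 390, 294 and 285. In the surroundings, contacts that repeated a position already listed in the library made up 90.9% to 93.8% at Proximal, 81.3% to 86.4% at Distal and 86.7% to 89.7% at Outside. Outside the zones this share was 44.2% to 58.7%, 26.6% to 38.7% and 38.8% to 56.2% in the same order. The files do not tell whether repeats are separate ligations or copies of one molecule.

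The Proximal repeat share was 93.8% and 92.9% in G1, and 90.9%, 91.6% and 93.4% (lowest, median, highest) in S. In 11 of 12 S libraries it lay below both G1 libraries (exact permutation p = 0.022, adjusted p = 0.297). Adjusted among the measures with the 2 Mb denominator, the same permutation p became 0.0495, with no change in the repeat share itself. The number of contacts bears on this share. With every library thinned to 4055 contacts the G1 values were 92.3% and 91.4%, and the S values were 90.7%, 91.4% and 92.2% (lowest, median, highest). After thinning 6 of 12 S libraries lay below both G1 libraries (adjusted p = 0.42 in the exact permutation test). Distinct positions per library ranged from 339 to 395 at Proximal, 355 to 391 at Distal and 250 to 316 at Outside, with no measure past the test.

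A spacing of 3 bp was common among the recurrent positions, which is the distance between the outer bases of GATC. Flank positions with a mean of at least 10 contacts per library numbered 109 at Proximal, 52 at Distal and 80 at Outside. Of these, 68, 28 and 54 had such a neighbour exactly 3 bp away. A neighbour 4 bp away was found for 12, 10 and 16 of them, and one 1 bp away for 0, 12 and 0. Whether these pairs sit on GATC was not checked, since no hg19 sequence was used here. Pairs 3 bp apart held 56.0% of the Proximal flank contacts on the lower side and 60.7% on the higher side. The shares were 38.3% and 24.6% for Distal and 51.6% and 52.9% for Outside.

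**Figure D4:**
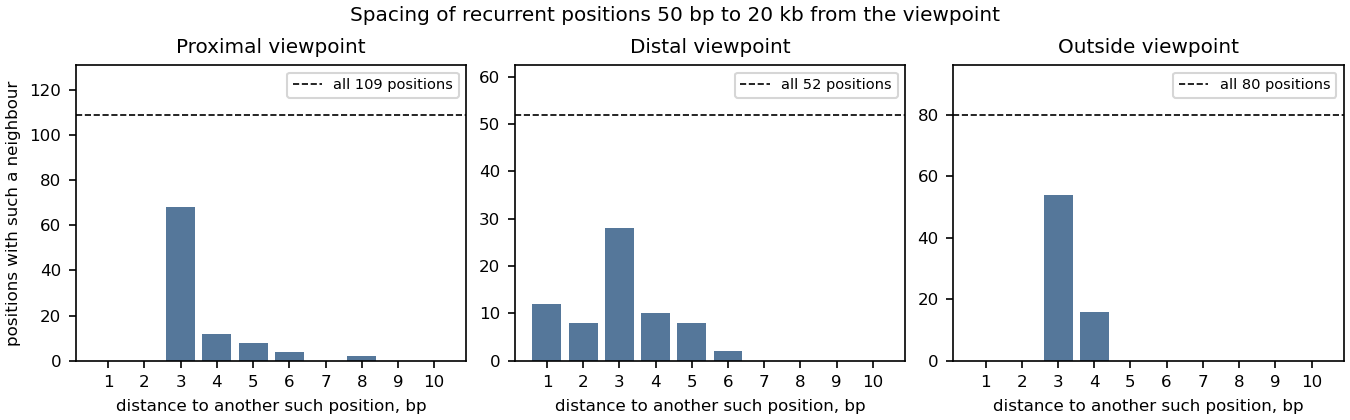
Number of recurrent flank positions (mean of at least 10 contacts per library, 50 bp to 20 kb from the viewpoint) that have another such position at each distance from 1 to 10 bp; the dashed line marks all such positions. The bar at 3 bp is the highest at each viewpoint, with 68 of 109, 28 of 52 and 54 of 80 positions.

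The balance within a pair varied. In the strongest Proximal pair (chr9:111627657-111627660) the higher-coordinate member held 64.0% of the contacts (1416 against 796), with libraries from 57.7% to 75.2%. In the pair at chr9:111625456-111625459 both members held 860 contacts. The strongest Distal pair (chr9:111523826-111523829) had 59.0% of its contacts at the higher member (52.1% to 63.3%). The next (chr9:111524739-111524742) leaned the other way, with 38.9% there (29.7% to 47.9%). The third (chr9:111521506-111521509) had 46.8% there (40.2% to 55.7%). The strongest Outside pair (chr9:111109169-111109172) had 61.5% at the higher member, with libraries from 49.2% to 80.6%. Over 34 Proximal, 14 Distal and 27 Outside pairs the share at the higher member ran from 26.9% to 70.5%, 30.7% to 69.9% and 41.7% to 70.5%, with medians of 52.1%, 43.3% and 50.8%. The same member led in all 14 libraries in 2, 6 and 1 of these pairs.

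Single bins were compared between S and G1 with limma on log2(contacts + 1), fitted over all 1 kb bins of chromosome 9 with a mean of at least 10 contacts, a scale that understates the change of low bins. None of the 37 Proximal, 32 Distal and 33 Outside zone bins so tested passed an adjusted p of 0.05, and 2, 1 and 3 had an unadjusted p below 0.05. The smallest adjusted p within the zones were 0.197, 0.272 and 0.503. Over all bins the same fit called 5.03% at Proximal (9 of 179), 2.76% at Distal (6 of 217) and 0% at Outside (0 of 257). All of these called bins were higher in S and lay beyond 20 kb. Early and late S differed in 0 zone bins in limma, with 2, 1 and 0 at an unadjusted p below 0.05, against 0% of all bins.

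Zone bins were lower in S more often than not. Their median log2 change from G1 to S was -0.16 at Proximal, -0.13 at Distal and -0.13 at Outside, while that of all bins was 0.25, 0.23 and 0.16. Of the zone bins, 26 of 37, 26 of 32 and 23 of 33 had a negative value. The replicate numbers differed here as well, with zone medians of -0.30, -0.24 and -0.25 in replicate 1 and 0.0064, 0.034 and -0.025 in replicate 2. With contacts within 2 Mb as library size, the medians of the zone were -0.30, -0.34 and -0.29 and those of all bins 0.097, 0.026 and 0.012.

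The bin just above the Proximal viewpoint held 2234 and 2082 contacts in G1, and 998, 1510.5 and 2855 (lowest, median, highest) in S. Its log2 change was -0.55 ± 0.24 (SE), with -0.43 in replicate 1 and -0.67 in replicate 2 (limma, adjusted p = 0.197). With replicate number as a block in the fit it passed, with an adjusted p of 0.0196 in limma. The bin just below the Distal viewpoint held 496 and 474 contacts in G1, and 383, 441 and 486 in S. Its change was -0.14 ± 0.094 (SE, limma adjusted p = 0.419) as contacts of the library. It was -0.36 ± 0.083 (SE, limma adjusted p = 0.0175) with contacts within 2 Mb as library size. The bin just below the Outside viewpoint held 149 and 165 contacts in G1, and 94, 112.5 and 145 in S, below both G1 libraries in every S library. Its change of -0.45 ± 0.18 (SE) had a limma adjusted p of 0.503. This bin was named after its values were seen, and bins with such a separation were not counted.

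**Figure D5:**
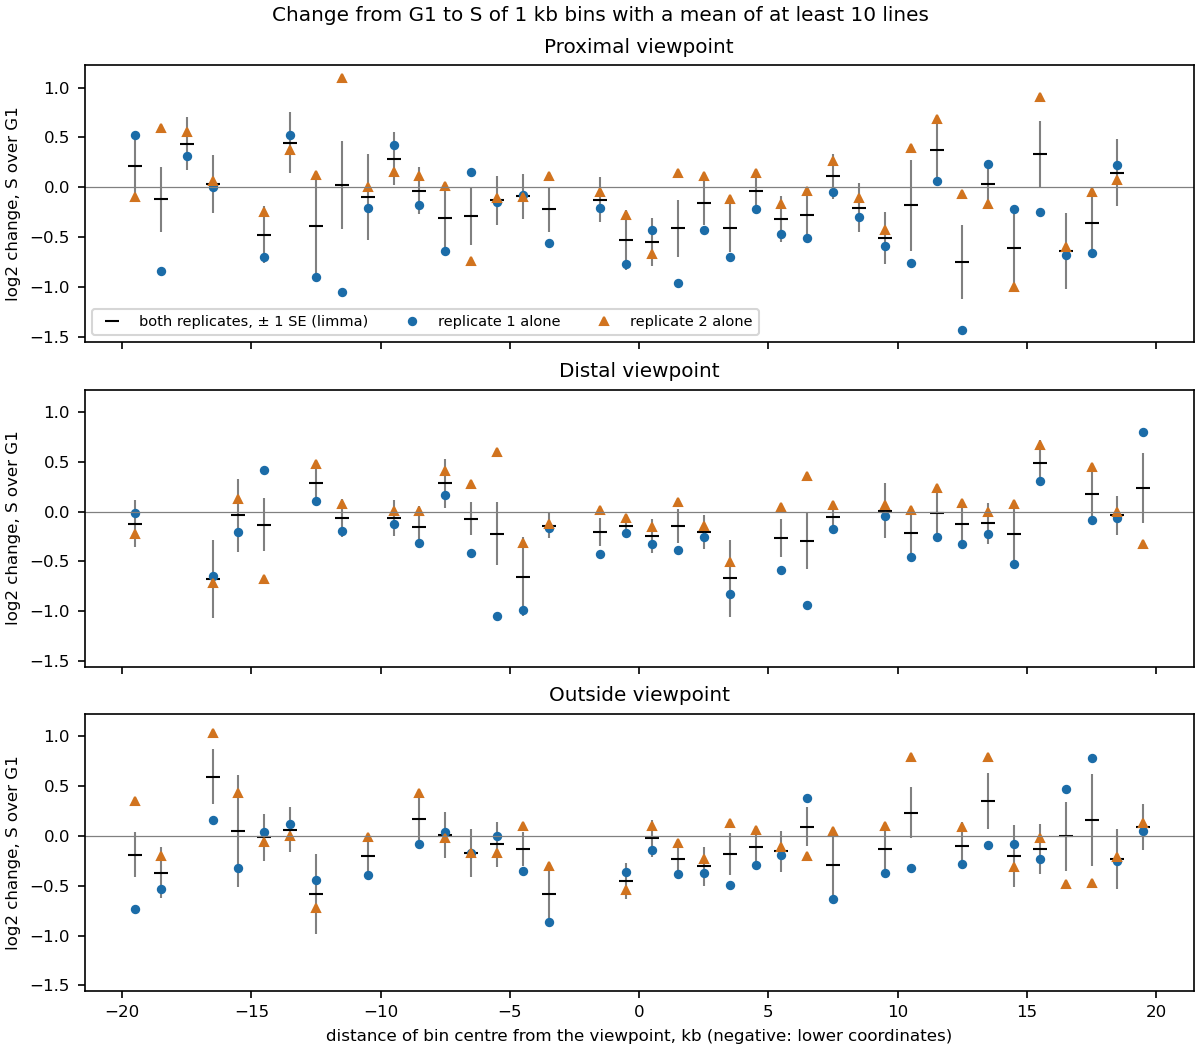
Log2 change from G1 to S of each 1 kb bin with a mean of at least 10 contacts, against distance of the bin centre from the viewpoint in kb. Bars with lines are both replicates with 1 SE from limma, circles replicate 1 alone and triangles replicate 2 alone; 26 of 37 Proximal, 26 of 32 Distal and 23 of 33 Outside bins lie below 0, and none passed the test.

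Single positions gave no call either. Limma tested 121 Proximal, 53 Distal and 84 Outside zone positions with a mean of at least 10 contacts, and 0 passed, with 7, 3 and 5 at an unadjusted p below 0.05. The background was 0% at each viewpoint (0 of 126, 0 of 55 and 0 of 99 positions of chromosome 9). The leading Outside neighbour, 934 bp below its viewpoint, held 69 and 74 contacts in G1 and 30, 40.5 and 59 (lowest, median, highest) in S, so that every S library lay below G1. Its log2 change was -0.79 ± 0.26 (SE, limma adjusted p = 0.639). This position lies in the bin just below the Outside viewpoint and held 649 of that bin's 1697 contacts, so these results overlap. The leading Distal neighbour, 419 bp below, held 71 and 69 in G1 and 48, 74 and 112 in S, and its change was 0.075 ± 0.26 (SE, limma adjusted p = 0.959). The Proximal position 2785 bp above the viewpoint held 117 and 92 in G1 and 61, 111 and 127 in S, and its change was -0.089 ± 0.32 (SE, limma adjusted p = 0.996).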

How the data were processed

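Per the labels' protocols, sorted K562-FUCCI cells were fixed, digested with DpnII and ligated in situ, and the DNA was sonicated. A biotinylated primer at the viewpoint was extended once, and a barcoded adapter was joined to the product. Cutadapt, bedtools and hg19 are listed in the submitters' processing notes. Their versions, the aligner and how barcodes were handled were not given in the sources used here. The deposited files, per the file headers, hold chromosome, start and end of 1 position per line, with no value column. Each library holds 16350 lines.

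Lines were counted by position, here called contacts, and distances run from the viewpoint, the position with most lines of its primer. The members, measures and tests were chosen with earlier results of these data known, and the core of 50 bp and the values by replicate number after library values had been looked at. Two-sided exact permutation tests compared 12 S with 2 G1 libraries (91 splits, smallest p 0.011) and 6 early with 6 late S libraries (924 splits, smallest p 0.00216), and 100000 resamples of F compared all fractions. P-values were adjusted by Benjamini-Hochberg over 27 measures, or 33 with core and flanks. Bins of 1 kb and single positions with a mean of at least 10 contacts on chromosome 9 were fitted with limma (eBayes with trend, 14 libraries, 7 fractions) on log2(contacts + 1) without the viewpoint position, adjusted over all features of a primer. The fits were tested on simulated data. Named bins and positions were the 5 with the highest mean, those at the viewpoint and those at the edge of 20 kb. The bin below the Outside viewpoint was added after its values were seen. Alternatives covered the radius, denominator, repeats, filter, pseudocount, bin size, library size, trend, a replicate block and single libraries. The fits ran in limma 3.58.1 under R 4.3.3, and the permutation tests in numpy 2.4.6, pandas 2.3.3 and scipy 1.17.1 under Python 3.11.15.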

Additional observations from a re-analysis of the deposited data

How the results depend on the processing

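These alternatives changed a count of passing measures, bins or positions, or a call on a zone or on a difference between viewpoints. With contacts within 2 Mb as the denominator 12 measures passed, among them the Proximal repeat share, which does not use it. The zone changes with this denominator were -10.5 (Proximal), -4.96 (Distal) and -4.26 points (Outside), past the threshold. The changes between viewpoints were then -5.55, -6.25 and -0.706 points. One Distal bin passed with contacts within 2 Mb as library size, and one Proximal bin with the replicate block. Without the S1 replicate 1 libraries the Proximal changes against Distal and Outside passed, at -4.38 and -4.20 points (adjusted p 0.0192 each in the exact permutation test). Only the difference left out had not been below both G1 values, so the unadjusted p was fixed at its smallest possible value. Equal library size and 2 libraries per group limit what these data can show.

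The replicate numbers were not taken to pair the libraries by the correlation of bin deviations, which exceeded 0.1 in 8, 4 and 2 pairs of 21 at Proximal, Distal and Outside. Over the bins within 20 kb it did so in 11, 14 and 9 of 21 pairs, with median r of 0.184, 0.164 and 0.0327, and every pair would have to pass. Such a correlation leaves out a shift shared by all the bins compared. The flank share was higher in replicate 2 in 6 of 7 fractions at each viewpoint. The check therefore cannot decide whether the replicate numbers pair. Under the block the zone differences from G1 stayed at -4.88, -1.18 and -1.35 points, with adjusted p of 0.184, 0.339 and 0.184 in the permutation test, and 0 measures passed. These were shares of the library. The block was not run on the shares of contacts within 2 Mb. Of the counts of bins and positions past the threshold, the block changed the Proximal bin count (from 0 to 1) and no other.

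With each position counted once per library, signs turned for several measures. From G1 to S these were the Distal zone (0.251), surroundings (0.250), within 1 kb (0.0269), 1 to 5 kb (0.0036), 5 to 20 kb (0.219), flanks (0.260) and higher side (-0.705). For Outside they were the zone (0.381), surroundings (0.380), within 1 kb (0.121), 1 to 5 kb (0.0075), 5 to 20 kb (0.251), core (0.0528) and flanks (0.328), and for Proximal within 1 kb (0.0634) and the flanks (0.0309). From late to early S the zone changes turned to -0.426, -0.161 and -0.114 points. In replicate 2 alone these had the opposite sign: the Distal zone (0.341), surroundings (0.279), 5 to 20 kb (0.687), repeat share (0.508), core (0.0275) and flanks (0.314), the Proximal viewpoint (-0.644), 1 to 5 kb (0.339), 5 to 20 kb (0.161), distinct positions (-9.33) and flanks (0.480), and the Outside 5 to 20 kb (0.269) and repeat share (0.327). In replicate 1 alone these were the Distal viewpoint (-0.0591), higher side (-0.599) and distinct positions (3.67). With a radius of 40 kb they were Distal 5 to 20 kb (0.410), higher side (-0.384) and distinct positions (9), and Outside 5 to 20 kb (0.457), higher side (-0.167) and repeat share (0.0414). With 10 kb it was the Distal higher side (-0.910). Thinning turned the Distal distinct positions (7.89) and the Outside repeat share (0.0809). The change of the Distal viewpoint from G1 to S turned to -0.0123 points as a share of chromosome 9 contacts. It turned to -0.0995 points as a share of the contacts within 2 Mb. The cause of these turns was not tested, and none of the turned measures had passed as a share of the library. Several had passed as shares of the contacts within 2 Mb. These were the Distal zone, surroundings, within 1 kb, 1 to 5 kb, 5 to 20 kb, core and flanks. The Outside zone, surroundings, 1 to 5 kb, 5 to 20 kb and flanks, and the Proximal flanks, had also passed there. Counting each position once and the other radii were not run with that denominator.

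Leaving out 1 library at a time, the changes ran from -5.50 to -4.60 points for the Proximal zone, -1.64 to -0.721 for Distal and -1.54 to -1.13 for Outside. These runs used shares of the library. As a share of the contacts within 2 Mb, the Proximal zone alone was rerun, without S1 replicate 1 only. Signs turned within the ranges of the Distal viewpoint (-0.0168 to 0.0199), higher side (-0.0731 to 0.332), 5 to 20 kb share (-0.605 to 0.227), the Outside core (-0.310 to 0.0260) and repeat share (-1.45 to 0.0521), the Outside zone between early and late S (-0.328 to 0.509), and the distinct positions of Proximal (-14.8 to 25.2), Distal (-8.92 to 5.08) and Outside (-22.8 to 8.17). The change between viewpoints ran from -4.38 to -3.37 points for Proximal against Distal, -4.20 to -3.21 for Proximal against Outside and -0.107 to 0.437 for Distal against Outside. With a G1 library left out the smallest possible p is 0.0769, so that no measure could pass.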
